A study of Homo sapiens with 6 samples.

Results

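The solute carrier organic anion transporter genes (SLCO) encode the organic anion transporting polypeptides (OATPs), and their mRNA levels were compared between methotrexate-resistant and parental Caco2 cells. The members were taken by annotation: every probe set of the array assigned to an SLCO symbol and to no other gene. This gave 11 genes, read by 22 probe sets, of 19775 genes with such a probe set. They are the 10 genes listed at the outset (SLCO1A2, SLCO1B1, SLCO1B3, SLCO1C1, SLCO2A1, SLCO2B1, SLCO3A1, SLCO4A1, SLCO4C1 and SLCO5A1) and SLCO6A1, which the same rule adds. The family was chosen with the low signal of SLCO1B3 in resistant cells already known, so the values of SLCO1B3 are a description and carry no test.

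Caco2 is a line derived from a human colon carcinoma. The resistant cells were obtained by stepwise selection and grew in 10 µM methotrexate (MTX), an antifolate drug, in a selective medium that lacks glycine, hypoxanthine and thymidine and contains dialyzed serum. The parental cells were sensitive to the drug and were kept in Ham's F12 medium with ordinary fetal bovine serum. The effects of resistance, of the medium and of exposure to the drug therefore cannot be told apart. Each group had 3 samples, and their RNA was hybridised to 6 arrays of the Affymetrix type HG U133 Plus 2.0. The labels do not say which samples were grown as cultures of their own.

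OATPs are membrane proteins that carry amphipathic organic anions into cells without using ATP directly. Their substrates include bile salts, sulphated and glucuronidated steroids, thyroid hormones, prostaglandins and drugs such as statins and MTX. In human liver OATP1B1 and OATP1B3 sit on the blood-facing membrane of hepatocytes, while OATP2B1, OATP3A1 and OATP4A1 are found in many tissues. OATP1B3 is known to be present in a part of colon tumours, and the RNA made there can start from another promoter than the one used in liver.

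Signals are given as the deposited intensity over the array median, so a value of 1 stands for a signal equal to the array median. The medians were 11.1, 10.6 and 11.5 on the resistant arrays and 11.1, 12.8 and 11.3 on the parental arrays. Parental array 3 stood apart a little: over the tested probe sets it correlated with the other parental arrays at 0.946 to 0.949, against 0.966 between those and 0.968 to 0.971 among the resistant arrays. The defining markers of an intestinal epithelial line were present in part. Of 10 enterocyte markers, 6 were over the array median, with a summed level of 1777 to 1833 on resistant arrays and 1142 to 1361 on parental arrays, whereas CDX2, ALPI, SI and FABP1 averaged below it. The largest part of the sum was KRT18, with means of 852.5 in resistant cells and 647.0 in parental cells.

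The signals of the family ran from far over the array median to near the lower end of the array. SLCO2A1 and SLCO2B1 lay close to the median, and each was over it on 2 of the 3 parental arrays. A gene was read by its brightest probe set. By the mean over the 6 arrays, 6 SLCO genes were over the array median: SLCO1B3, SLCO2A1, SLCO2B1, SLCO3A1, SLCO4A1 and SLCO5A1. On all 3 resistant arrays 5 of these were over the median, and on all 3 parental arrays 3 were. SLCO3A1 and SLCO4A1 were the 2 genes over it on every array, while SLCO1A2, SLCO1C1 and SLCO6A1 were over it on no array. The boundary ran between SLCO2B1, whose mean over all arrays was 1.23, and SLCO1B1, with a mean of 0.792. Signals of different probe sets depend on their probes as well as on RNA amount, so they do not rank the genes by RNA amount. A lower signal can come from less RNA in every cell or from fewer cells that make it, and these cannot be told apart in RNA of a whole culture.

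**Figure D1:**
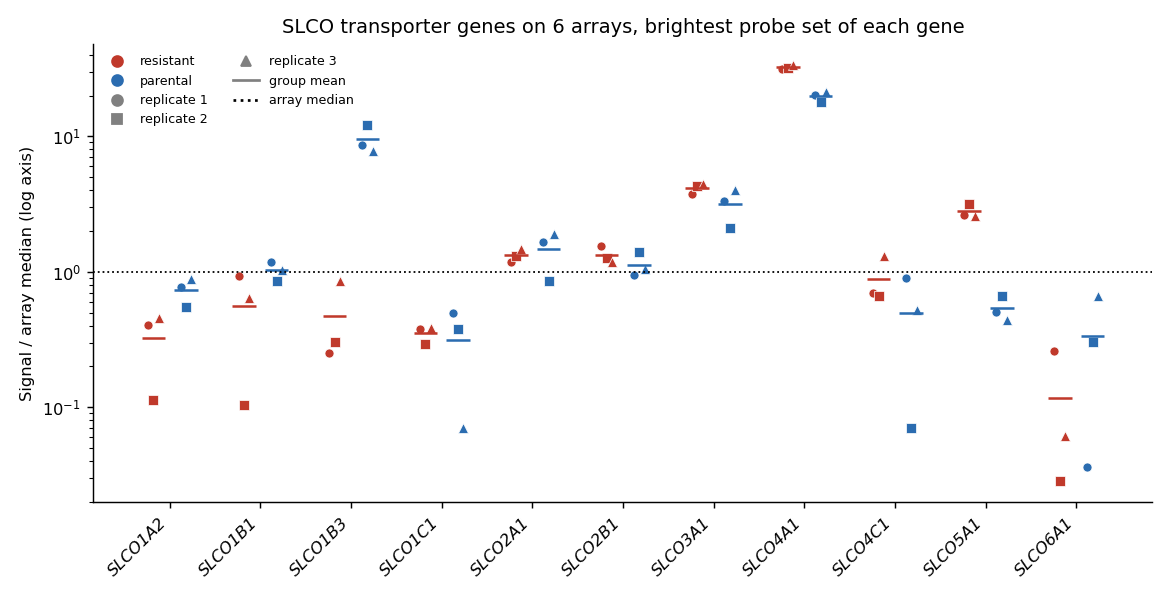
Signal of the brightest probe set of each SLCO gene, as a multiple of the array median on a log axis, with resistant arrays left of parental arrays and a line at the array median. SLCO4A1 lies far above the line in both groups, SLCO1B3 lies above it only on the 3 parental arrays and SLCO5A1 only on the 3 resistant arrays.

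SLCO1B3, which encodes the hepatocyte uptake carrier OATP1B3, had the largest difference of the family among its tested probe sets. Its probe set 206354_at gave 0.252, 0.302 and 0.861 times the array median on resistant arrays 1 to 3, against 8.68, 12.1 and 7.73 times on parental arrays 1 to 3. The signal was below the array median on every resistant array and well above it on every parental array, and the groups did not overlap, as was so for 35.5% of all tested genes. The means were 0.472 ± 0.338 in resistant cells and 9.50 ± 2.29 in parental cells (SD, n = 3 each). On the log2 scale the difference, resistant minus parental, was -4.53 ± 0.44 (SE), or 23.1-fold lower in resistant cells. The size of this fold rests on dim resistant signals. With 0.5 times the array median added to every signal the log2 difference was -3.39, or 10.5-fold lower. Without resistant array 3, the brightest of its group, it was -5.08, or 33.8-fold lower, and without resistant array 1 it was -4.19.

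SLCO1B3 lies on chromosome 12 at chr12:20810705-20916911 (GRCh38.p14), beside SLCO1C1 (chr12:20695332-20753386), SLCO1B1 (chr12:21131194-21239796) and SLCO1A2 (chr12:21264600-21419634). SLCO1B3 and SLCO1B1 are close copies of each other, and the study's own annotation of 206354_at also lists SLCO1B1 and a synonym of the SLCO1B3-SLCO1B7 readthrough, so this signal may hold RNA of more than 1 of them. SLCO1B1, which encodes the hepatic statin carrier OATP1B1, has a probe set of its own, 210366_at. It gave 0.937, 0.104 and 0.643 times the array median on resistant arrays, against 1.18, 0.852 and 1.04 times on parental arrays. These values did not leave the region of the array median in parental cells and overlapped between groups. The probe set was below the filter on low signals and was not part of the fit.

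The regions around the RefSeq starts of SLCO1B3 and SLCO1B1 are shown because the 2 genes are a pair of copies. Their probe sets gave unlike signals in parental cells, which does not rank the 2 genes by RNA amount. Each line runs 5′ to 3′ on the plus strand of GRCh38.p14, from 250 bases before to 50 bases after the annotated start, and capitals mark the bases from the start onwards. The positions are chr12:20810455-20810754 for SLCO1B3 and chr12:21130944-21131243 for SLCO1B1.
SLCO1B3: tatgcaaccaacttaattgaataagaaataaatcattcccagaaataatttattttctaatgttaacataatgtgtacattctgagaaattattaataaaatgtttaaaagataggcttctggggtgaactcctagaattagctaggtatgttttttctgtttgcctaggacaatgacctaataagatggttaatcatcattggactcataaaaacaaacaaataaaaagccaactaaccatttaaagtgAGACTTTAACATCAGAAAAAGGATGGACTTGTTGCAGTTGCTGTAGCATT
SLCO1B1: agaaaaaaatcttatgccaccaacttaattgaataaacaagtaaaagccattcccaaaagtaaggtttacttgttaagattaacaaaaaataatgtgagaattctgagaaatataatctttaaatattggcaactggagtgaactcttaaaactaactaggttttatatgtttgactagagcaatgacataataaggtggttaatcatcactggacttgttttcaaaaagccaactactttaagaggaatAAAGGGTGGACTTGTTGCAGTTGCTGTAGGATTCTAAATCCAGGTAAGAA

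The RefSeq table held 9 windows of the family, from 6 genes. SLCO1C1, SLCO2A1, SLCO4A1, SLCO5A1 and SLCO6A1 had no window and were not searched. The FOXA motif TGTTTAC, a target of forkhead factors of liver and gut, was searched on both strands and was in 0 of these 9 windows and in 1191 of 34796 windows of all genes (3.42%). So few windows cannot set the family apart from that share. In a global alignment the windows of SLCO1B3 and SLCO1B1 shared 216 of 261 aligned bases (82.8%), with 78 bases opposite gaps. Between SLCO1B3 and 1 of the 2 windows of SLCO1A2 the share was 62.5%, with 72 bases opposite gaps. This was the SLCO1A2 window with the lower position, and the other was not aligned. Both shares leave out the bases opposite gaps. The GC content was 30.0% for SLCO1B3 and 31.3% for SLCO1B1, both with 0 CpG, against 80.0% and 78.7% for the 2 windows of SLCO3A1 and a median of 58.7% over all windows. The search describes the letters of these windows and no more, and which start the Caco2 RNA uses was not measured by these arrays.

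SLCO4A1 encodes OATP4A1, a widely expressed carrier of thyroid hormones, prostaglandins and taurocholate, and its signal rose in resistant cells. Probe set 219911_s_at gave 31.5, 31.9 and 33.7 times the array median on resistant arrays, against 20.05, 17.9 and 21.3 times on parental arrays. Every resistant array was above every parental array, and all 6 were far over the median. The means were 32.4 ± 1.18 in resistant cells and 19.8 ± 1.71 in parental cells (SD, n = 3 each). The log2 difference was 0.71 ± 0.13, which is 1.64-fold with a 95% interval of 1.33 to 2.02, and the adjusted p was 0.0103 (limma, Benjamini-Hochberg over all tested probe sets). The call did not hold without resistant array 1, 2 or 3 (adjusted p 0.0603, 0.0573 and 0.0627) or by the methods' t-test (0.0548), with log2 differences between 0.63 and 0.77 over the alternatives that kept this probe set. With the mean over both probe sets of SLCO4A1 the log2 difference was 0.59 and did not pass (adjusted p 0.244). A further probe set, 229239_x_at, of a type that can share probes with unrelated transcripts, lay between 0.142 and 0.513 times the array median on resistant arrays and between 0.164 and 0.225 times on parental arrays.

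A long noncoding RNA gene, SLCO4A1-AS1, lies wholly inside SLCO4A1 on chromosome 20 (chr20:62663027-62666621, within chr20:62642503-62690740). It has a probe set of its own, 1554332_a_at. This gave 2.33, 2.69 and 1.88 times the array median on resistant arrays, against 4.65, 2.86 and 4.23 times on parental arrays. Every resistant array was below every parental array, opposite to SLCO4A1, but the log2 difference of -0.75 ± 0.25 did not pass the test (adjusted p 0.0892, and 0.0537 to 0.248 over the alternatives). It was examined after the values of SLCO4A1 had been seen.

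SLCO5A1 (chr8:69667046-69834978), whose product OATP5A1 has no well established substrate, was the second gene that rose. Probe set 230650_at gave 2.60, 3.18 and 2.58 times the array median on resistant arrays, against 0.505, 0.664 and 0.442 times on parental arrays. The groups did not overlap, and the array median lay between them. The means were 2.79 ± 0.339 in resistant cells and 0.537 ± 0.114 in parental cells (SD, n = 3 each). The log2 difference was 2.39 ± 0.36, which is 5.24-fold with a 95% interval of 3.00 to 9.18 (adjusted p 0.0037). The size of this fold rests on dim parental signals. With 0.5 times the array median added to every signal the log2 difference was 1.67, or 3.17-fold higher. The call held under the 15 alternatives that tested this probe set, with adjusted p from 0.00106 to 0.0437, and with the mean over both probe sets of the gene (log2 1.99, adjusted p 0.0388). At a filter of 3 times the array median it was not tested. SLCO5A1 and SLCO1B3 passed the filter only through the group in which they are high, and with no filter the adjusted p of SLCO5A1 was 0.0068. The other probe set, 220984_s_at, gave 0.703, 0.292 and 0.130 times the array median on resistant arrays, against 0.0901, 0.1797 and 0.0619 times on parental arrays. All of these were below the array median and overlapped, so the second probe set gave no call.

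Of the 5 tested SLCO genes other than SLCO1B3, 2 were higher in resistant cells, 0 were lower and 3 did not pass an adjusted p of 0.05. Over all tested genes 12.4% passed, 7.37% higher and 5.05% lower. SLCO5A1 reached the fit only through the resistant arrays, where it is high, so 2 of 5 is not compared with that share. With no filter, 2 of 10 SLCO genes other than SLCO1B3 passed, against 5.59% of all genes. Without parental array 3 both calls held, with adjusted p of 0.000902 for SLCO4A1 and 0.00106 for SLCO5A1. With resistant array 1, 2 or 3 omitted, SLCO4A1 did not pass (adjusted p 0.0573 to 0.0627) and SLCO5A1 did. Among these 5 genes only SLCO5A1 both passed the test and reached a 2-fold difference, as 5.54% of all tested genes did. The median log2 difference of these 5 genes was 0.44, against 0.015 over all 11849 tested genes. It is the value of SLCO3A1, which was not called. With SLCO1B3 included, the median over the tested SLCO genes was 0.34. Neither median shows a rise of the family as a whole. With the deposited intensities taken without further scaling, the split over all genes was 599 higher and 624 lower, against 873 higher and 598 lower with each array divided by its median; the 2 SLCO calls were the same.

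The 3 tested members that did not pass were SLCO3A1, SLCO2A1 and SLCO2B1. OATP3A1, the product of SLCO3A1, carries prostaglandins and thyroxine, and the gene lies at chr15:91853708-92172435. Its probe set 227367_at gave 3.72, 4.31 and 4.41 times the array median on resistant arrays, against 3.34, 2.12 and 4.03 times on parental arrays. The groups overlapped, and parental array 2 was the lowest of the 6. The log2 difference was 0.44 ± 0.25 (adjusted p 0.299), and the 95% interval of the ratio reached from 0.915 to 2.00. The other tested probe sets of SLCO3A1 had log2 differences of -0.13 (219229_at, adjusted p 0.805), 0.09 (210542_s_at, 0.897) and 0.42 (229776_at, 0.5). They shared neither a direction nor a call.

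SLCO2A1 encodes the prostaglandin transporter that takes up prostaglandins for their breakdown (chr3:133932701-134029925). Probe set 204368_at gave 1.18, 1.31 and 1.47 times the array median on resistant arrays, against 1.67, 0.852 and 1.91 times on parental arrays. The resistant values all lay within the parental range. The log2 difference was -0.08 ± 0.39 (adjusted p 0.911), without parental array 1 or 3 it was 0.04 or 0.14, and the interval of the ratio, 0.516 to 1.72, leaves room for changes of nearly 2-fold.

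SLCO2B1 encodes OATP2B1, an uptake carrier of gut and liver for sulphated steroids and statins (chr11:75151107-75206549). Probe set 203473_at gave 1.54, 1.27 and 1.18 times the array median on resistant arrays, against 0.946, 1.398 and 1.04 times on parental arrays. The groups overlapped around the median, with a log2 difference of 0.25 ± 0.36 (adjusted p 0.698) and a ratio between 0.679 and 2.08. With the mean over the 3 probe sets of SLCO2B1 the log2 difference was -0.60 (adjusted p 0.514). Its dimmer probe sets, 203472_s_at and 211557_x_at, were below the array median on every array.

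**Figure D2:**
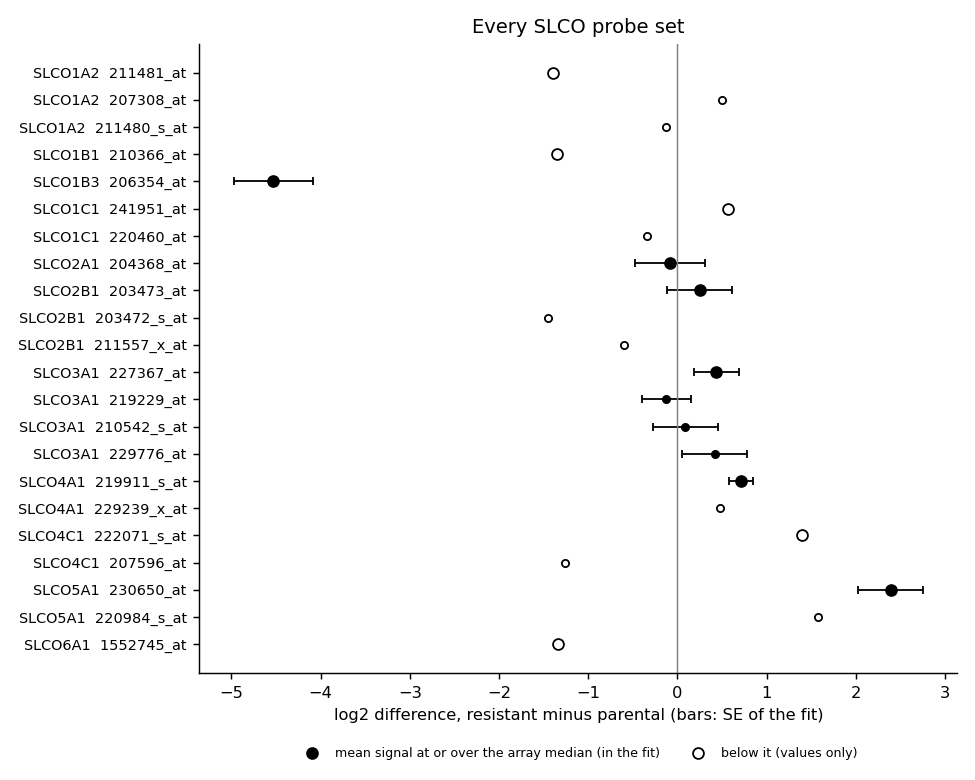
Log2 difference, resistant minus parental, of all 22 SLCO probe sets, with large markers for the brightest probe set of a gene and filled markers for probe sets that entered the fit. The filled markers of SLCO3A1 lie on both sides of 0, and only SLCO1B3 and SLCO5A1 have a filled marker beyond a 2-fold difference.

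The remaining 5 genes gave signals that were mostly below the array median. SLCO1A2 encodes OATP1A2, a carrier of the blood-brain barrier, and its brightest probe set 211481_at gave 0.405, 0.113 and 0.452 times the median on resistant arrays, against 0.775, 0.547 and 0.885 times on parental arrays. These groups did not overlap, but no array reached the median, and the other probe sets of SLCO1A2, 207308_at and 211480_s_at, overlapped between groups. SLCO1C1 encodes a thyroxine carrier of brain capillaries. Its probe set 241951_at stayed between 0.292 and 0.383 times the median on resistant arrays and between 0.0708 and 0.495 times on parental arrays, and 220460_at was below the median on every array too.

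SLCO4C1 encodes OATP4C1, the carrier of kidney tubules that takes up digoxin and MTX (chr5:102233986-102296284). Its brightest probe set 222071_s_at gave 0.694, 0.660 and 1.31 times the median on resistant arrays, against 0.892, 0.0703 and 0.522 times on parental arrays. The groups overlapped, and only resistant array 3 passed the median. The second probe set of SLCO4C1, 207596_at, pointed the other way, with 0.351, 0.509 and 0.139 times on resistant arrays, against 0.883, 0.703 and 0.558 times on parental arrays. SLCO6A1 (chr5:102371774-102499001), a gene of testis read by 1552745_at, lay between 0.0283 and 0.261 times the median on resistant arrays and between 0.036 and 0.664 times on parental arrays. Without the filter on low signals, 0 of the 13 probe sets it had left out passed the test in limma, with adjusted p between 0.406 and 0.976, so no difference of these probe sets was detectable at their signal.

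**Figure D3:**
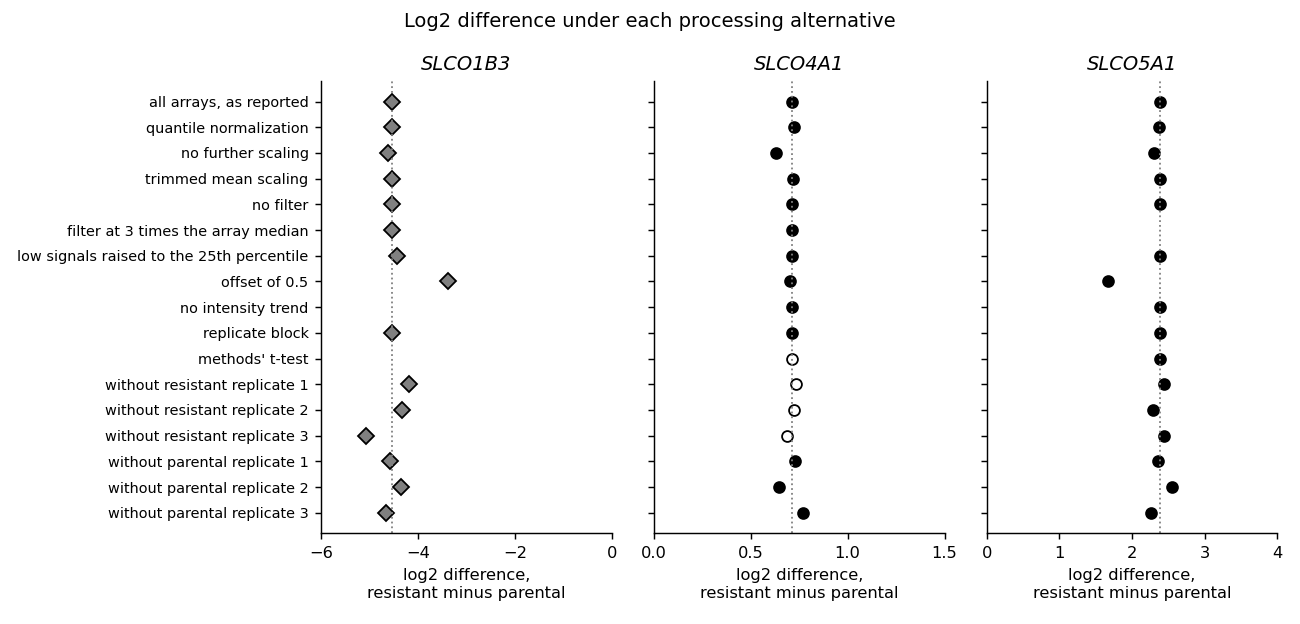
Log2 difference, resistant minus parental, of the brightest probe sets of SLCO1B3, SLCO4A1 and SLCO5A1 under the alternatives that kept those probe sets. Filled circles have an adjusted p below 0.05 and open circles do not. Grey diamonds are SLCO1B3, whose values carry no test, and the dotted line is the value in the text. SLCO5A1 is filled under each alternative drawn, and SLCO4A1 is open in 4 of its 16. The mean over all probe sets of a gene is not drawn.

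Beside the family, 5 lists of genes that share its substrates or control were read: carriers of organic anions and bile acids, regulators of transporter genes, and genes of prostaglandin, thyroid hormone and steroid sulphate handling. Of 68 listed genes 40 were tested, 11 were higher in resistant cells and 4 lower, which is 37.5% called against 12.4% over all tested genes. The lists were chosen with earlier results of these data known, so this share is a description and not a result about the lists. FOXA2, NR0B2 and TTR also passed the filter only through the resistant arrays. Of the 15 calls, 6 held whichever array was left out (FOXA2, PTGS2, AKR1C3, ABCC4, SULT1A1 and CRYM), with adjusted p up to 0.0348. By the methods' t-test 0 of the 40 tested genes were called, with adjusted p of at least 0.0537, while 19 had an unadjusted p below 0.05. The other 9 limma calls were lost when at least 1 array was left out, with the highest adjusted p of each gene between 0.0571 and 0.16. The total was 6 without resistant array 1, 2 or 3, 8 without parental array 1, 11 without parental array 2 and 21 without parental array 3.

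Among the carriers, 7 of 19 were tested, 2 rose and 1 fell. ABCC4, an export pump for prostaglandins, bile acids and MTX, averaged 18.8 times the array median in resistant cells and 45.7 times in parental cells, a log2 difference of -1.27 ± 0.19 (adjusted p 0.00322). ABCC3, the basolateral export pump of enterocytes and hepatocytes, averaged 74.0 times in resistant cells and 52.4 times in parental cells (log2 0.50 ± 0.13, adjusted p 0.0342). ABCG2, an apical export pump, averaged 19.7 times in resistant cells and 11.6 times in parental cells (log2 0.82 ± 0.23, adjusted p 0.0487). The calls of ABCC3 and ABCG2 were lost without any resistant array or parental array 1, and that of ABCG2 also without parental array 2, with adjusted p up to 0.159. The reduced folate carrier SLC19A1, the main uptake route of MTX, had a log2 difference of 0.28 (adjusted p 0.599), and the proton-coupled folate carrier SLC46A1 one of 0.68 (adjusted p 0.0618).

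Among the regulators, 10 of 16 were tested, 2 rose and 1 fell. FOXA2, a forkhead factor of liver and gut, was at 5.49 to 6.74 times the array median on resistant arrays and at 0.324 to 0.805 times on parental arrays, 12.1-fold higher in resistant cells (log2 3.59 ± 0.35, adjusted p 0.00034). NR0B2, the small heterodimer partner that represses bile acid synthesis genes, was at 1.05 to 2.55 times on resistant arrays and at 0.108 to 0.274 times on parental arrays (log2 3.66 ± 0.82, adjusted p 0.0226). Both passed the filter only through the resistant arrays, and the call of NR0B2 was lost without resistant array 3 (adjusted p 0.0571). Without resistant array 1 or 2, NR0B2 was below the filter and not tested. With 0.5 times the array median added to every signal, FOXA2 was 6.48-fold higher (log2 2.70) and NR0B2 3.64-fold (log2 1.86). HIF1A, the hypoxia factor, averaged 80.2 times in resistant cells and 110.7 times in parental cells (log2 -0.46 ± 0.12, adjusted p 0.0388), a call lost under 10 of 16 alternatives, among them without any resistant array and without parental array 1 or 2 (adjusted p up to 0.16). FOXA1 did not pass (log2 -0.31, adjusted p 0.313), nor did AHR (log2 0.76, adjusted p 0.0526). HNF4A, NR1H4 and NR1I2 were not analysed here.

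Among the prostaglandin genes, 11 of 14 were tested, 3 rose and 2 fell. PTGS2, the inducible cyclooxygenase, was at 3.27 to 5.50 times the array median on resistant arrays and at 18.1 to 51.0 times on parental arrays, 7.44-fold lower in resistant cells (log2 -2.90 ± 0.34, adjusted p 0.00101). AKR1C3, which reduces prostaglandins and steroids, averaged 207.5 times in resistant cells and 45.9 times in parental cells, 4.64-fold higher (log2 2.22 ± 0.18, adjusted p 0.000107). ABCC4, described above, is the second that fell. PTGR1, a prostaglandin reductase, had a log2 difference of 0.64 ± 0.16 (adjusted p 0.0323), and CBR1, a carbonyl reductase, one of 1.22 ± 0.30 (adjusted p 0.0326). The calls of PTGR1 and CBR1 were lost without any resistant array and without parental array 1 or 2, with adjusted p up to 0.138. PTGES (log2 -0.94, adjusted p 0.0623) and HPGD (log2 -0.06, adjusted p 0.921) did not pass.

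Among the thyroid hormone genes, 6 of 11 were tested, 2 rose and 0 fell. TTR, the thyroxine-binding plasma protein transthyretin, averaged 2.63 times the array median in resistant cells and 0.402 times in parental cells, 7.86-fold higher (log2 2.97 ± 0.59, adjusted p 0.0138). TTR passed the filter only through the resistant arrays, and its call was lost without any of them, with adjusted p up to 0.0875. With 0.5 times the array median added to every signal, TTR was 3.57-fold higher (log2 1.84). CRYM, a cytosolic binder of triiodothyronine, averaged 3.89 times in resistant cells and 1.22 times in parental cells (log2 1.70 ± 0.27, adjusted p 0.0044). The amino acid carrier SLC7A5, which also takes up thyroid hormone, had a log2 difference of -1.02 that did not pass (adjusted p 0.0735).

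Among the steroid sulphate genes, 7 of 9 were tested, 2 rose and 1 fell. SULT1A1, a sulphotransferase whose probe set may share probes with other transcripts, averaged 30.8 times the array median in resistant cells and 13.5 times in parental cells (log2 1.21 ± 0.18, adjusted p 0.00323). HSD17B8, a hydroxysteroid dehydrogenase, had a log2 difference of 0.61 ± 0.16 (adjusted p 0.04). STS, the steroid sulphatase, averaged 4.40 times in resistant cells and 8.82 times in parental cells (log2 -1.02 ± 0.28, adjusted p 0.045). The calls of HSD17B8 and STS were lost without any resistant array and without parental array 1 or 2, with adjusted p up to 0.154.

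**Figure D4:**
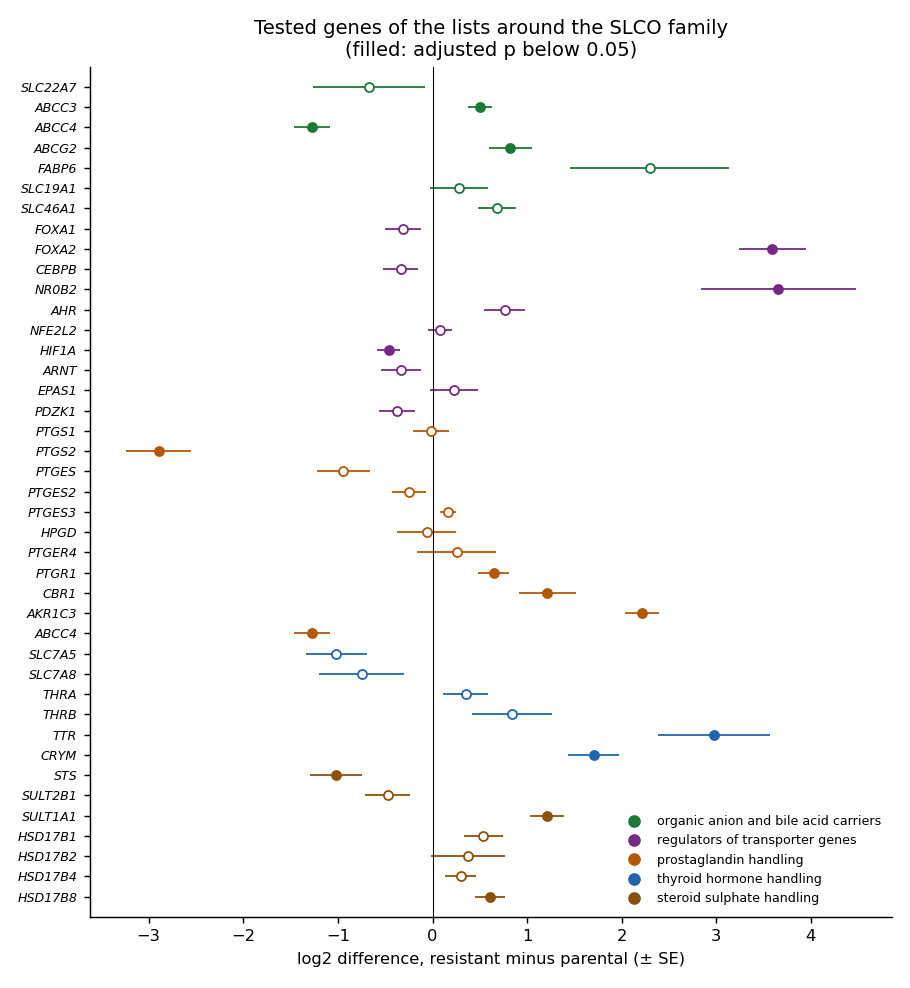
Log2 difference, resistant minus parental, with its standard error, of the tested genes of the 5 lists, grouped by list, with ABCC4 drawn in both lists that hold it. FOXA2 and NR0B2 lie farthest to the higher side and PTGS2 farthest to the lower side.

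Genes next to the SLCO genes were read to show whether a difference extended along the chromosome. For each locus the 5 nearest tested genes on each side were taken, 70 in all. Of these 7 were higher in resistant cells and 2 lower, or 12.9%, close to the 12.4% over all tested genes. None of the 9 calls held whichever array was left out: the total was 2, 1 and 0 without resistant array 1, 2 or 3, 1 and 4 without parental array 1 or 2, and 24 without parental array 3.

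Around the SLCO1 cluster on chromosome 12, 1 of 10 neighbours was called, the lactate dehydrogenase gene LDHB, which was higher in resistant cells (log2 0.61, adjusted p 0.0292). The nearest flanking tested genes, AEBP2 at 1173 kb and PYROXD1 at 18.02 kb from the cluster, had log2 differences of -0.28 and -0.47 and did not pass, against -4.53 for SLCO1B3 between them. Around SLCO5A1 on chromosome 8 only LACTB2 was called (log2 0.44, adjusted p 0.0388). Around SLCO4A1 it was the collagen gene COL9A3 (log2 1.22, adjusted p 0.0476). Around SLCO3A1 it was FAM174B (log2 1.11, adjusted p 0.0143), and around SLCO2A1 it was AMOTL2, which was lower (log2 -1.01, adjusted p 0.0362). The locus of SLCO2B1 on chromosome 11 held the other 4: ARRB1, which encodes a beta-arrestin (log2 1.23, adjusted p 0.0136), POLD3, a DNA polymerase delta subunit (log2 0.74, adjusted p 0.0351), and LIPT2-AS1 (log2 0.64, adjusted p 0.0496) were higher, and GDPD5 was lower (log2 -0.78, adjusted p 0.0392). Around SLCO4C1 and SLCO6A1 on chromosome 5, 0 of 10 neighbours were called.

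**Figure D5:**
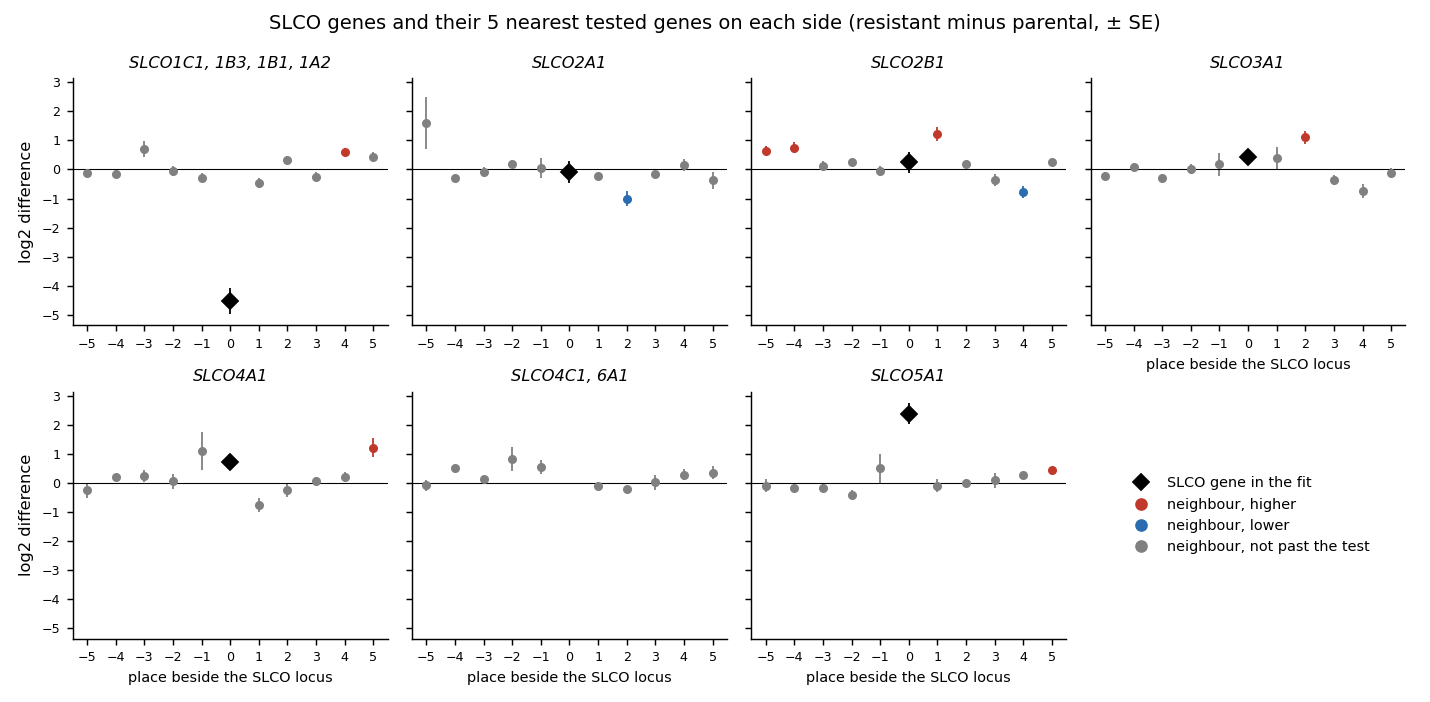
Log2 difference, resistant minus parental, of the 5 nearest tested genes on each side of every SLCO locus, by order along the chromosome, with the SLCO genes drawn at the centre. The values of SLCO1B3 and SLCO5A1 stand beyond those of their neighbours.

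The genes whose pattern over the 6 arrays was most like that of SLCO1B3 were CCNI (Pearson r 0.9985, log2 -0.45), DTX4 (0.9971, log2 -0.48) and PFN1 (0.9964, log2 -0.24). Those most like SLCO5A1 were CRIM1 (0.9973, log2 2.09), DNAJC22 (0.9962, log2 1.66) and SIN3A (0.9956, log2 0.40). With 6 arrays these values mostly follow the division into 2 groups, and they are given as a description, without a test.

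Markers of other cell types were read beside these results. Of 10 hepatocyte markers, SERPINA1 and CYP3A4 were over the array median, with a summed level of the list of 127.0 to 140.4 on resistant arrays and 75.25 to 103.5 on parental arrays, and ALB, AHSG, FGA, FGB and TF averaged below the median in both groups. Nearly the whole sum was SERPINA1 (124.4 times the array median in resistant cells and 78.4 times in parental cells), whereas ALB averaged 0.541 times in resistant cells and 0.713 times in parental cells. Of the enterocyte markers 4 of 6 tested were higher in resistant cells and 0 lower, against 7.37% higher and 5.05% lower over all tested genes. VIL1 was 1 of the 4 (38.4 times the array median in resistant cells and 22.2 times in parental cells, adjusted p 0.00504). LGALS4 (0.0351) and KRT18 (0.0394) were nearer the threshold, and marker calls were not recomputed with single arrays left out. FABP1, not tested, was lower on resistant arrays (0.0377 to 0.126 times) than on parental arrays (0.25 to 0.929 times), while CDX2, ALPI and SI overlapped. Of 6 fibroblast markers, COL1A1 and LUM were over the median, with sums of 7.49 to 8.38 on resistant arrays and 4.95 to 5.70 on parental arrays, and LUM, which passed the filter only through the resistant arrays, was higher there (log2 3.20, adjusted p 0.0072). Of 6 leukocyte markers, CD14 and LYZ were over the median and PTPRC and CD3D were not, with sums of 500.9 to 558.9 on resistant arrays and 300.009 to 359.6 on parental arrays. Nearly the whole sum was LYZ (514.9 times in resistant cells and 309.1 times in parental cells), which was called higher (log2 0.74, adjusted p 0.00227). CD14 was not called (adjusted p 0.836). CD3E, not tested, averaged 0.420 times in resistant cells and 1.25 times in parental cells. Of 5 endothelial markers only PECAM1 was over it, with sums of 2.91 to 3.70 on resistant arrays and 2.63 to 4.36 on parental arrays. The part of these differences in the SLCO results was not tested.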

How the data were processed

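RNA of resistant and parental Caco2 cells was hybridised to 6 arrays, 3 per group, and groups and replicate numbers were read from the sample titles. The table deposited by the authors holds an intensity on a linear scale for every probe set of each array. Per the submitters' processing notes these values were made with MAS5, whose version is not given in the sources used. Detection calls were not used here, and for arrays the number of arrays limits the precision. The per-gene ratios that the methods describe were not used here. 0 columns fell outside the 6 samples, and 0 pairs of arrays held identical values.

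After 62 control probe sets were left out, 54613 of 54675 remained. Each intensity was divided by its array median, exact zeros were set to 0.05 signal units, and log2 values were taken. The 26563 probe sets whose mean signal over all 6 arrays reached 1 times the array median were fitted with limma 3.58.1 (R 4.3.3; lmFit, eBayes with an intensity trend, two-sided, no block), and p-values were adjusted by Benjamini-Hochberg over all of them. Calls were made at 0.05. With 3 arrays a side the smallest p of an exact permutation test is 0.1, so none was used. Samples of a group may share a culture, so p-values reflect only the spread between samples, possibly technical. The code was tested on simulated data.

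Gene symbols came from GEO's platform annotation, updated to RefSeq (GRCh38.p14): 41091 probe sets carried 1 symbol, of which 41037 matched, 1801 carried several, and 11721 stayed unnamed. Promoter windows came from RefSeq and were found for 6 of the 11 SLCO genes. The members, lists and tests were chosen with earlier results of these data known. Named were every SLCO probe set, the 3 genes most like each SLCO gene that differed at least 2-fold, up to 6 called genes of a list, called neighbours, and a few uncalled list members of known role, chosen after their values were seen. Alternatives were other scalings, other filters, raised or offset low signals, no trend, a replicate block, an ordinary t-test, other rules for several probe sets, and leaving out each array. The ordinary t-test used the log2 values and filter of the limma fit. It is not the study's own procedure, which filtered by control strength in GeneSpring.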

Additional observations from a re-analysis of the deposited data

How the results depend on the processing

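The log2 difference of SLCO2A1, near 0 and not called, ran from -0.44 to 0.14 when single arrays were left out and turned positive (0.04 and 0.14) with parental array 1 or 3 omitted, and that of SLCO2B1, not called either, was -0.60 with the mean over all probe sets of a gene. Of the other tested differences that were recomputed, none changed sign. The number of called SLCO genes was 2. It was 1 with a filter at 3 times the array median, where SLCO5A1 was not tested. It was also 1 by the ordinary t-test and with the mean over all probe sets of a gene. When single arrays were left out it was 1 to 2. Counted at 2 times the array median, 3 SLCO genes were expressed in place of 6. By the median over the probe sets of a gene, 4 were over the array median. The log2 difference of SLCO1B3 was -4.53, and it was -3.39 with the offset and -5.08 to -4.19 when single arrays were left out. The 15 calls of the lists became 8 without the intensity trend and 6 to 21 when single arrays were left out. They became 0 by the ordinary t-test, chosen for the lists after seeing the data. The 9 calls among neighbours became 4 with no filter, 1 without the trend, 1 by the ordinary t-test, and 0 to 24 when single arrays were left out. Over all genes 1471 were called, against 624 without the trend and 192 by the ordinary t-test. The number was 496, 528 and 557 without resistant array 1, 2 or 3. It was 760 and 889 without parental array 1 or 2, and 3815 without parental array 3. The cause was not tested.

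Arrays with the same replicate number did not deviate together (correlations of -0.0182, -0.0218 and -0.0165), so the numbers were not taken as pairs. With the replicate number as a block, SLCO4A1 had an adjusted p of 0.0293 and SLCO5A1 of 0.00981, and 1163 genes were called. Other scalings moved the median log2 difference of all genes to between -0.067 and 0.016. Signals below the array median limit what can be said of SLCO1A2, SLCO1B1, SLCO1C1, SLCO4C1 and SLCO6A1.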
